A study of Mus musculus with 10 samples.

Results

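Ankyrins and spectrins were followed through 5 mouse genes: Ank1, Ank2 and Ank3 (ankyrins) and Sptan1 and Sptbn1 (spectrins). All splicing events with these gene symbols were taken, 742 of 661162 events in the deposited table for N2A cells, together with their entries in the deposited neural microexon list and in the deposited cycloheximide comparison. The genes were picked with splicing differences between Qk knockdown and control in view, among them that of a 12 nt exon of Ank2. The differences in that contrast are therefore given as a description of these samples. N2A is a mouse neuroblastoma line. It received 40 nM of an siRNA pool against Qk, an RNA-binding splicing regulator (siQk, n = 3), or of a non-targeting pool (siNT, n = 3), and RNA was taken after 72 h from wells seeded with 100000 cells. The neurons were glutamatergic and derived in culture from mouse embryonic stem cells. On day 7 they received 100 uM cycloheximide, an inhibitor of translation, for 12 h (n = 2) or no treatment (n = 2). All libraries were made from polyadenylated RNA, and the labels call the replicates biological.

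Spectrins form long flexible tetramers of alpha and beta chains beneath the plasma membrane and link short actin filaments into a lattice. Ankyrins bind beta spectrin on one side and the cytoplasmic tails of channels, transporters and adhesion molecules on the other, and so anchor these proteins in the lattice. In neurons, ankyrin-G (Ank3) organises the axon initial segment and the nodes of Ranvier, ankyrin-B (Ank2) acts along the axon with alpha-II spectrin (Sptan1) and beta-II spectrin (Sptbn1), and ankyrin-R (Ank1) is best known from red blood cells. Large neuronal forms of Ank2 and Ank3 carry a giant exon that is skipped in the shorter forms.

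The exons on which the results turn are shown first, read 5′ to 3′ on the coding strand from GENCODE M21 transcripts, with the alternative exon in capitals and the last and first 18 nt of the exons around it in lower case. A pair of 12 nt exons, in Ank2 (chromosome 3, 126979256 to 126979267, minus strand) and in Ank3 (chromosome 10, 69929447 to 69929458, plus strand), sits in the same arrangement in each gene and is coding in each.
Ank2 12 nt: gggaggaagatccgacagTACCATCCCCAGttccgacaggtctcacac
Ank3 12 nt: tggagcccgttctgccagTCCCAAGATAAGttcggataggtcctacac
The exon after each of them has acceptor sites 15 nt apart, which give a form of 103 nt or of 88 nt. The next lines show the 15 nt that only the longer form keeps, in capitals, and the 18 nt that follow.
Ank2 acceptor region: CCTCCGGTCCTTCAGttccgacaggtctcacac
Ank3 acceptor region: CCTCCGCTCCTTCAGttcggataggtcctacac
Position by position, the 12 nt exons were identical at 6 of 12 bases, the 15 nt stretches at 14 of 15 bases, and the shared 88 nt at 50 of 88 bases. In GENCODE M21 the single Ank2 transcript with the 12 nt exon and all 6 such Ank3 transcripts continue into the 88 nt form.

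Sptan1 has a 60 nt coding exon (chromosome 2, 30001100 to 30001159, plus strand) and a 15 nt coding exon (chromosome 2, 30014158 to 30014172), shown because the first differed between the groups and the second is in the neural microexon list.
Sptan1 60 nt: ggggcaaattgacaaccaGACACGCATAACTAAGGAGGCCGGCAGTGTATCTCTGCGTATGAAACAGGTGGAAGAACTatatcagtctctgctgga
Sptan1 15 nt: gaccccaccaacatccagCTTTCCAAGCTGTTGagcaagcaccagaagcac
A 27 nt exon (chromosome 10, 69980824 to 69980850) and a 63 nt exon (chromosome 10, 69904448 to 69904510) of Ank3 and a 99 nt exon of Ank2 (chromosome 3, 126963383 to 126963481) are shown because siQk and siNT samples did not overlap in them.
Ank3 27 nt: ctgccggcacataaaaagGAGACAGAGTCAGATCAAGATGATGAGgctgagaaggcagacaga
Ank3 63 nt: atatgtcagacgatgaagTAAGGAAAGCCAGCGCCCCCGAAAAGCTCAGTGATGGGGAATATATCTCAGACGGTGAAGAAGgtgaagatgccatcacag
Ank2 99 nt: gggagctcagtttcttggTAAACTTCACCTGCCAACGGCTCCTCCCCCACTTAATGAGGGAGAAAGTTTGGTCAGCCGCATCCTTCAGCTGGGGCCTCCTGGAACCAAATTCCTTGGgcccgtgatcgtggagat
The lengths of all 7 exons are multiples of 3, so that inclusion keeps the reading frame by length.

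Inclusion is given as percent spliced in (PSI), the share of transcripts that include an exon, as deposited per sample on the mm10 assembly. Where 3 values follow each other for a group, they are those of its replicates 1, 2 and 3 in that order. Exon-event reads numbered from 26595944 to 80481173 per N2A sample. Junction coverage of Qk, in exon-event reads of the gene scaled to library depth (CPM), went from 85.4 ± 4.71 (SD, n = 3) in siNT to 11.2 ± 2.60 (SD, n = 3) in siQk. The neuroblastoma lineage genes Isl1 and Gata3 and the neuronal genes Stmn2, Gap43, Snap25 and Map2 were covered in every sample, whereas the neuronal genes Nefl and Dcx had at most 3 and 7 reads in a sample. Of 10 fitted markers 1, Isl1, passed an adjusted p of 0.05 in limma (log2 fold change 0.45, SE 0.1, adjusted p = 0.0491), with 34.8, 33.8 and 37.6 CPM in siNT and 43.7, 53.4 and 48.9 CPM in siQk, and its part in the results was not tested. The glial genes Aqp4, Mog and Mag had no reads in any sample, and Mbp stayed between 1.43 and 3.23 CPM. For the neurons the table used here lists microexons only, so that their cell type could not be checked.

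Ank2, Ank3, Sptan1 and Sptbn1 were well covered in N2A cells and Ank1 was not. The exon events of Ank1 had from 2 to 23 reads per sample in all, and none of its 131 events reached 10 reads in every sample. The coverage of Ank2 was 154 ± 10.0 CPM in siNT and 133 ± 8.85 CPM in siQk, with 146, 151 and 166 CPM in siNT and 127, 143 and 128 CPM in siQk. The log2 fold change of Ank2 coverage was -0.22 (SE 0.08). The log2 fold change of coverage was -0.12 (SE 0.08) for Ank3, -0.14 (SE 0.09) for Sptan1 and 0.06 (SE 0.08) for Sptbn1. In limma over 10851 genes with Benjamini-Hochberg adjustment, 0 of these 4 genes passed an adjusted p of 0.05, against 4.21% of all genes. Of the 4, Ank2 alone had an unadjusted p under 0.05, for which no share over all genes is given here. Coverage counts a read once for each event it serves and is not scaled to gene length, so levels of different genes are not set against each other.

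Most exons of these genes were either always or never included in N2A cells. Of their 248 cassette exon events, 202 had at least 10 reads in each sample, and of these 161 had a mean PSI above 98%, 24 had a mean below 2% and 17 lay between. All 34 exon events of Sptbn1, which encodes the beta-II chain, were above 98%. Sptan1, which encodes the alpha-II chain, had 53 of 59 above 98% and 2 between the limits. In the ankyrins, 8 of 59 exon events of Ank2 and 7 of 50 covered events of Ank3 lay between the limits. Of the 17 exons between the limits, 14 had a length that is a multiple of 3, against 5515 of the 12930 such exons of all genes.

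Only exons with a mean PSI from 2% to 98% and at least 10 reads in each sample were fitted. An exon was called when the adjusted p was under 0.05 in limma, fitted on all 12930 cassette exons, and the means differed by at least 10 percentage points. By this rule 2 of the 17 fitted exons were called, both higher in siQk, and 1.18% of all fitted cassette exons were called. In 5 of the 17 the groups did not overlap, against 14.6% of all fitted cassette exons, and in 13 of the 17 the siQk mean was higher, against 50.6%. The means differed by at least 10 points in 5 of the 17, against 5.51% of all. The median difference was 2.05 points over the 17 exons and 0.04 points over all. Because the genes were chosen on this contrast, nothing is read from these shares. By length, 1 of 4 fitted member microexons (3 to 27 nt) was called, against 7.32% of all, and 1 of 13 longer exons, against 0.975%.

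**Figure D1:**
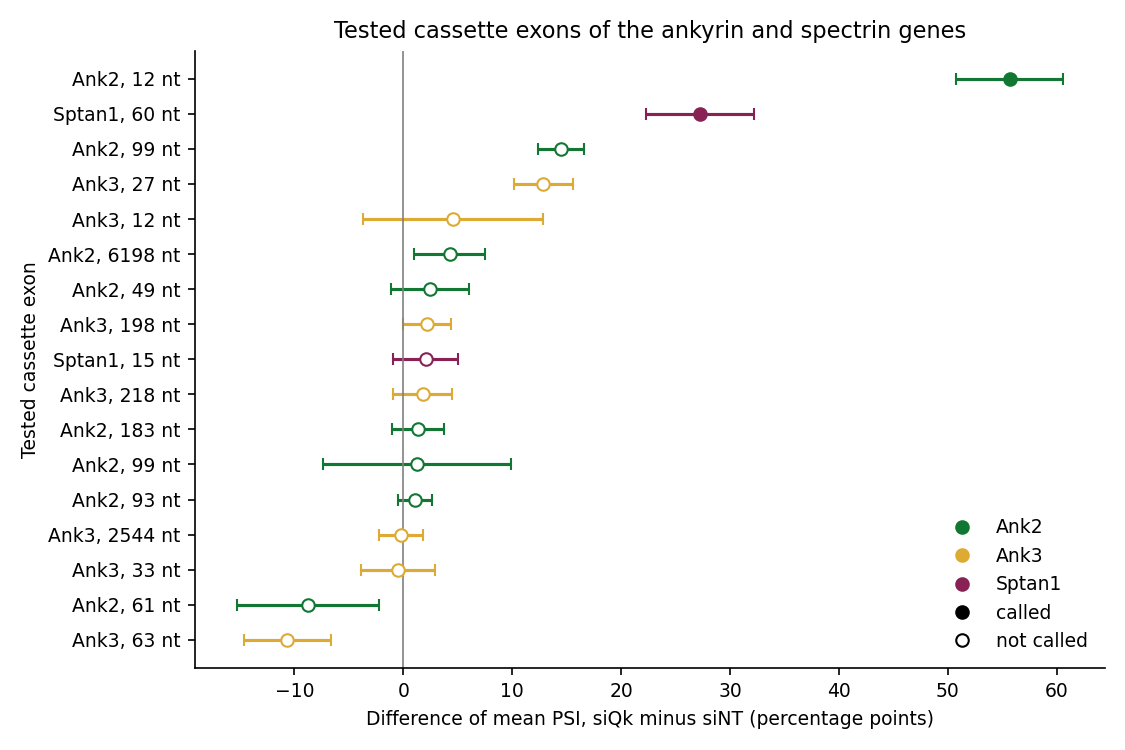
Difference of mean PSI, siQk minus siNT in percentage points, for the 17 fitted cassette exons of Ank2, Ank3 and Sptan1 (bars: standard error of the difference from the SD of each group, n = 3 per group). The 12 nt exon of Ank2 (55.7 points) and the 60 nt exon of Sptan1 (27.2 points) are called, and of the 2 exons of 99 nt in Ank2 the upper is the one at 14.5 points.

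The 12 nt exon of Ank2 rose in siQk, on the deposited scale from mostly skipped to mostly included and on uncorrected reads to a level still below that of skipping. Its PSI was 32.3%, 20.2% and 23.1% in siNT and 86.2%, 81.5% and 74.9% in siQk. The groups were far apart: the lowest siQk sample lay above the highest siNT sample. The means were 25.2% ± 6.35 (SD, n = 3) and 80.9% ± 5.70 (SD, n = 3), a difference of 55.7 points. On the fitted scale, which is log2 of deposited inclusion over exclusion reads, the change was 3.66 (SE 0.39). These reads follow the deposited PSI and so carry its correction.

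The level of this exon depends on how its reads are corrected. For exons such as this, the quality cell beside each PSI lists the reads on the junction into the exon, out of it and skipping it. For the Ank2 exon these were 13, 9 and 161 in siNT 1, 5, 2 and 97 in siNT 2, and 7, 11 and 210 in siNT 3. They were 19, 15 and 19 in siQk 1, 25, 9 and 27 in siQk 2, and 49, 20 and 81 in siQk 3. Taken without correction, the mean of the inclusion junctions against the skipping junction gives 4.66% ± 1.53 in siNT and 38.6% ± 8.68 in siQk. The direction is that of the deposited values and the exon is called on either scale, but the difference is 33.9 points in place of 55.7. The gap between the scales was widest in the shortest exons. The 12 nt exon of Ank3 had a deposited 60.1% ± 2.67 and an uncorrected 14.4% ± 1.66 in siNT, and the 15 nt exon of Sptan1 a deposited 60.8% ± 4.61 and an uncorrected 36.2% ± 4.54. In the 60 nt exon of Sptan1 the siNT mean was 38.5% on both scales. A 33 nt exon of Ank3 had a deposited 24.4% and an uncorrected 19.4% in siNT. In the 6198 nt exon of Ank2 the gap went the other way, with a deposited 34.0% and an uncorrected 45.1% in siNT. The sources used here do not give the correction itself.

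**Figure D2:**
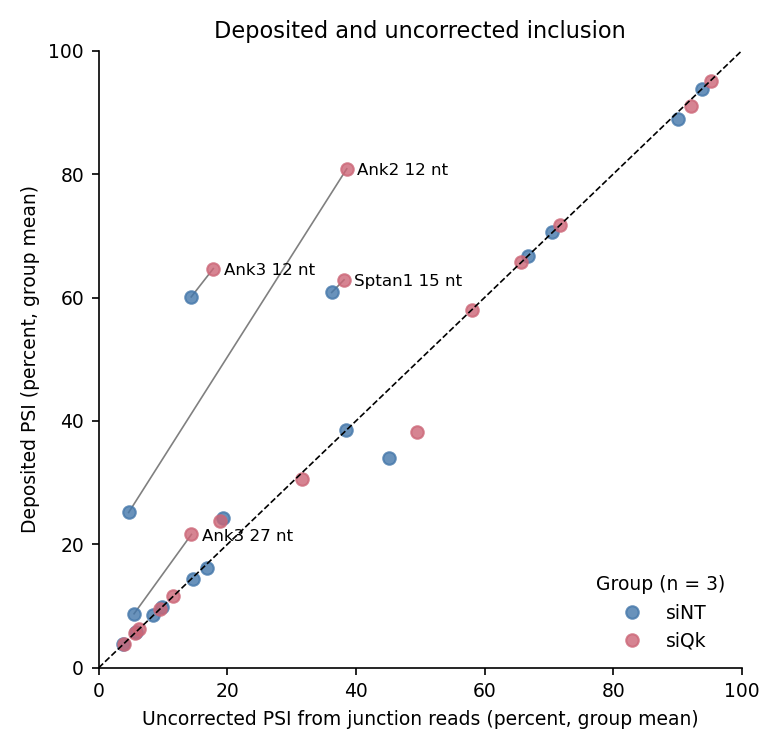
Deposited PSI (vertical axis, percent) against the PSI from uncorrected junction reads (horizontal axis, percent) for the 17 fitted exons, as means of 3 siNT (blue) and 3 siQk (red) samples. The dashed line marks equality and grey lines join the groups of each microexon. The microexons lie above the line, the 12 nt exon of Ank3 farthest, most longer exons lie on it, and the 6198 nt exon of Ank2 lies below it.

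The counterpart of 12 nt in Ank3, in the same arrangement, was at a middle level on the deposited scale in both groups. On uncorrected reads it was mostly skipped in both, at 14.4% ± 1.66 in siNT and 17.8% ± 9.40 in siQk. Its deposited PSI was 62.3%, 60.9% and 57.1% in siNT and 79.5%, 51.5% and 63.1% in siQk. The siQk samples lay on both sides of the siNT samples. The means were 60.1% ± 2.67 and 64.7% ± 14.1, a difference of 4.59 points that was not called, and its sign turned to -2.81 points without siQk sample 1. The exon rested on 41 to 180 reads per sample, and whether its difference is unlike that of the Ank2 exon was not tested.

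The acceptors of the exon that follows are listed as events of their own, and their reads may be in part those of the 12 nt exons. In Ank3 the acceptor of the 88 nt form had 14, 6 and 17 reads in siNT and 19, 5 and 16 in siQk, beside 14, 6 and 20 and 20, 5 and 14 reads on the junction out of the 12 nt exon. In Ank2 that acceptor had 8, 0 and 6 reads in siNT and 2, 2 and 3 in siQk. The junction out of the Ank2 12 nt exon had 9, 2 and 11 reads in siNT and 15, 9 and 20 in siQk. Not all of these reads were therefore counted on the acceptor. Each event names the donor of the exon before, and the table does not tell which reads from the 12 nt exon were counted with it. The acceptor values are therefore not taken as a readout apart from that exon. The deposited use of the 88 nt acceptor in Ank3 had means of 56.6% ± 6.37 in siNT and 66.9% ± 9.03 in siQk, with overlapping groups, and the uncorrected means were 11.9% ± 2.76 and 19.8% ± 10.3. The difference of 10.3 points was 5.19 points without siQk sample 1. In Ank2 the deposited use of the 88 nt acceptor was 30.0%, 0% and 13.8% in siNT and 46.6%, 24.1% and 24.5% in siQk. The groups overlapped, and the acceptor held 8, 0 and 6 of 83, 36 and 114 reads in siNT and 2, 2 and 3 of 13, 16 and 47 reads in siQk. The deposited means were 14.6% ± 15.005 and 31.8% ± 12.9, and the uncorrected means were 4.97% ± 4.83 and 11.4% ± 4.60. The deposited difference of 17.2 points was 9.74 points without siQk sample 1, 9.86 without siNT sample 2 and 24.9 without siNT sample 1, and only in the last of these were both sites of the pair called. In limma 0 of 6 alternative 3′ splice sites of these genes were called, and 0 had an unadjusted p under 0.05, while 0.101% of all fitted sites were called. The groups overlapped in all 6, whereas 9.55% of all fitted sites did not overlap.

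The 60 nt exon of Sptan1 rose as well and had the most reads of the fitted exons, from 792 to 2434 per sample. Its PSI was 42.6%, 38.8% and 34.1% in siNT and 74.2%, 62.6% and 60.3% in siQk. Every siQk sample lay above every siNT sample. The means were 38.5% ± 4.27 and 65.7% ± 7.46, a difference of 27.2 points and of 1.64 (SE 0.24) on the fitted log2 scale. The call was lost when limma was run on PSI in place of the read ratio. The intron annotated across this exon (2168 nt, from 30000063 to 30002230) was retained at 6.03% ± 1.62 in siNT and 8.03% ± 2.80 in siQk, with overlapping groups.

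The 15 nt exon of Sptan1 stayed at a middle level in both groups. Its PSI was 56.8%, 65.8% and 59.9% in siNT and 60.5%, 63.3% and 64.9% in siQk. The groups overlapped, and the means were 60.8% ± 4.61 and 62.9% ± 2.22 with 331 to 1047 reads per sample. The 18 nt and 24 nt exons of Sptan1 ranged from 99.48% to 100% over the samples.

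**Figure D3:**
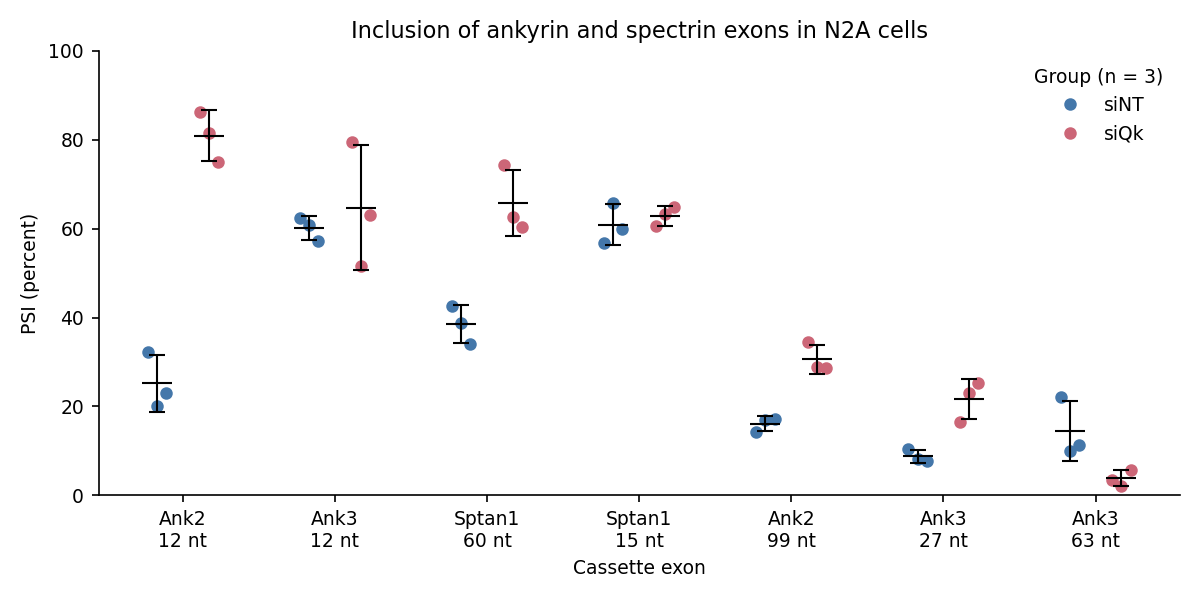
PSI in percent of 7 exons in each N2A sample (siNT blue, siQk red, 3 samples each), with black bars for the mean and SD. The groups do not overlap in the 12 nt and 99 nt exons of Ank2, the 60 nt exon of Sptan1 and the 27 nt and 63 nt exons of Ank3, and they overlap in the 12 nt exon of Ank3 and the 15 nt exon of Sptan1.

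3 further ankyrin exons had groups that did not overlap without passing the call rule. The 99 nt exon of Ank2 stood at 14.2%, 16.98% and 17.3% in siNT and at 34.4%, 28.8% and 28.7% in siQk. The siQk samples were all higher, with means of 16.1% ± 1.71 and 30.6% ± 3.29. This exon passed when limma was run on PSI and on uncorrected reads. The 27 nt exon of Ank3 stood at 10.3%, 8.25% and 7.69% in siNT and at 16.6%, 23.0% and 25.3% in siQk. Again all siQk samples were higher, with means of 8.76% ± 1.40 and 21.6% ± 4.52, and the exon passed with sampling variance weights.

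The 63 nt exon of Ank3 lay lower in siQk, also without passing the call rule. It stood at 22.1%, 10.0% and 11.2% in siNT and at 3.53%, 2.19% and 5.75% in siQk. All siQk samples were lower, with means of 14.5% ± 6.68 and 3.82% ± 1.80, a difference of -10.6 points. Without siNT sample 1 the difference was -6.80 points, and the exon passed on uncorrected reads and with no filter on mean PSI. The introns on its sides, which were not called either, had higher values in every siQk sample than in any siNT sample. The 177 nt intron before it was at 0.50% ± 0.108 in siNT and 3.55% ± 1.88 in siQk. The 15927 nt intron listed after it was at 1.14% ± 0.670 and 2.93% ± 0.760. Both siNT means lie below the 2% limit, so these introns were fitted only through their siQk values. Few reads lie behind them: the ends of the 177 nt intron had 1, 0 and 1 and 0, 1 and 1 exon-intron reads in siNT. In siQk they had 2, 4 and 5 and 0, 4 and 7. The 15927 nt intron had 0 reads at one end in every siQk sample.

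The remaining fitted exons of Ank2 and Ank3 differed by less than 10 points, with overlapping groups in all 10. Exon events in the first part of Ank2 had different PSI, with siNT means of 66.8% ± 10.2 for a 61 nt exon, 70.6% ± 12.8 for a 99 nt exon and 3.82% ± 3.96 for a 49 nt exon. Their siQk means were 58.0% ± 4.82, 71.8% ± 7.65 and 6.31% ± 4.77. The 61 nt exon, in 5 GENCODE transcripts and coding in 0, had 0 reads on one of its inclusion junctions in every sample. The other junction had 21, 22 and 55 reads in siNT and 17, 16 and 41 in siQk. Its PSI therefore does not show inclusion between 2 neighbouring exons. A 183 nt exon of Ank2 was at 93.8% ± 2.96 and 95.1% ± 2.91, and a 93 nt exon was at 8.51% ± 2.19 and 9.59% ± 1.54. In Ank3, a 198 nt exon was at 88.9% ± 1.67 and 91.1% ± 3.52 and a 33 nt exon was at 24.4% ± 5.73 and 23.9% ± 1.30.

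The giant exons of the large neuronal forms were present in N2A cells at middle to low levels. The giant exon of Ank2 (6198 nt, chromosome 3, 126941610 to 126947807, coding in 2 GENCODE transcripts) had a PSI of 36.1%, 37.5% and 28.3% in siNT and of 41.2%, 37.7% and 35.9% in siQk. The groups overlapped (34.0% ± 4.96 and 38.2% ± 2.71), on 30 to 107 reads, and the uncorrected means were 45.1% ± 4.47 and 49.5% ± 1.76. The annotated giant exon of Ank3 (7674 nt, chromosome 10, 69986089 to 69993762) is split in the table between a 2544 nt event that holds its start and a 218 nt event that holds its end. Reads into its start numbered 35, 9 and 37 in siNT and 15, 9 and 30 in siQk. Reads out of its end numbered 53, 25 and 78, and 37, 22 and 67. With the skipping reads of the same samples (206, 145 and 335, and 95, 118 and 306), the uncorrected share was 14.2% ± 3.57 in siNT and 15.6% ± 5.21 in siQk. The deposited PSI of the 2544 nt event was 5.85% ± 2.94 and 5.66% ± 1.91 and that of the 218 nt event 9.86% ± 1.70 and 11.6% ± 4.40. These events use only junctions, and a shorter exon with the same end would add to them.

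Several very short exons listed for these genes were at the limits of inclusion in N2A cells. The 24 nt and 22 nt coding exons of Ank2 (chromosome 3, 127052226 to 127052249 and 126950735 to 126950756) were between 97.1% and 100% in every sample. The 24 nt exon of Ank3 (chromosome 10, 69823078 to 69823101) was at 0%, 0% and 0.47% in siNT and at 1.24%, 3.54% and 2.03% in siQk. Its siQk samples were all higher, at levels that rest on few reads, and its mean was too low to be fitted. A 3 nt exon of Ank3 was at 0% except for 1.17% in siQk sample 3. A 5 nt and a further 24 nt exon of Ank2 and an 8 nt and a 3 nt exon of Sptan1 were at 0% in every sample. Over all 6 samples this was 0 of 491 and 0 of 518 reads for the Ank2 exons and 0 of 6547 and 0 of 9261 reads for the Sptan1 exons, which allows uncorrected shares of up to 0.611%, 0.579%, 0.0458% and 0.0324%. These limits (3 reads of the total) cover counting error only.

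Retained introns were rare and low in these genes. Of 155 introns with at least 10 reads in each sample 144 had a mean retention below 2% and 11 were fitted. The means of the 11 lay between 0.50% and 8.03% in either group, and in all 11 the siQk mean was the higher, against 44.5% of all fitted introns. In 4 of the 11 the groups did not overlap, against 10.4% of all fitted introns. They were the introns beside the 63 nt exon of Ank3, whose siNT means were below the 2% limit for fitting, and a pair in Sptbn1. Because the genes were chosen on this contrast, and introns were fitted by their mean over both groups, nothing is read from these shares. In Sptbn1, a 48175 nt intron was listed at 3.61% ± 0.0737 in siNT and 5.95% ± 1.42 in siQk. At one end it had 10, 18 and 17 exon-intron reads in siNT and 24, 6 and 19 in siQk. The other end had 0 in every sample, so retention of the whole intron is not shown. A further donor of Sptbn1, at position 30267541, lies inside this intron, and its part in these reads was not tested. A 4414 nt intron of Sptbn1 was at 4.42% ± 0.202 and 5.50% ± 0.546. In limma 0 of the 11 were called, against 0.113% of all fitted introns. An unadjusted p under 0.05 was seen in 2 of the 11, both in Ank3, and no share over all introns is given for it here.

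The fitted donor sites of Sptbn1 lie at the start of the gene. The donor at position 30267948 of chromosome 11 was used at 74.8%, 91.5% and 82.6% in siNT and at 82.4%, 79.5% and 78.7% in siQk. A site 407 nt away was used at 24.1%, 8.51% and 15.3% in siNT and at 17.02%, 20.5% and 20.8% in siQk. The groups overlapped in both sites. In Ank3 a pair of donors 36 nt apart kept the longer form at 96.0% ± 0.784 in siNT and 94.3% ± 1.08 in siQk, and a pair of acceptors 3 nt apart kept the longer form at 86.0% ± 1.24 and 85.5% ± 3.21. In limma 0 of 4 alternative 5′ splice sites were called and 0 had an unadjusted p under 0.05, while 0.107% of all fitted sites were called. The groups overlapped in all 4, against 10.7% without overlap among all.

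In the deposited neural microexon list, which gives PSI per group with replicates combined, 3 exons belong to these genes. All 3 are in the classes without a change in the authors' deposited table. There the 27 nt exon of Ank3 went from 9.11% in siNT to 22.6% in siQk, a difference of 13.5 points. The 15 nt exon of Sptan1 was at 59.9% and 63.1%, and the 24 nt exon of Ank2 at 97.1% and 98.2% in the authors' deposited table. The authors' deposited table places an ACTAAY motif (Y is C or T), a recognition core of Qk, downstream of the Ank2 24 nt exon and none at the other 2 exons. These values come from the same 6 samples as those above.

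In neurons, cycloheximide went with different inclusion of 2 ankyrin-G microexons in opposite directions. The authors' deposited table holds 11 microexons of these genes with PSI per condition, replicates combined. A microexon was counted as changed at 10 points and a probability of at least 0.9, which held for 2 of the 11, both in Ank3, and for 9.4% of the 2469 microexons of all genes. The 27 nt exon of Ank3 was at 92.7% in untreated and 67.7% in treated neurons (probability 1) in the authors' deposited table. The 12 nt exon of Ank3 was at 64.7% and 77.6% (probability 1) in the authors' deposited table. Neither has a spread between replicates, and the depth behind these values is unknown.

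The other 9 microexons differed by less than 10 points in the authors' deposited table. The largest difference among them was in the 15 nt exon of Sptan1, at 98.5% in untreated and 91.7% in treated neurons (probability 1). For the 12 nt exon of Ank2, PSI was 35.6% and 34.6% (probability 0.591) in the authors' deposited table. A 24 nt exon of Ank1 was at 99.2% and 97.3%, the 22 nt and 24 nt exons of Ank2 at 99.8% and 97.2% and at 94.4% and 95.8%, and the 24 nt and 18 nt exons of Sptan1 above 97% in both conditions. The 24 nt exon of Ank3 was at 12.0% and 7.18%, and a 3 nt exon of Ank3 (chromosome 10, 70017996 to 70017998) at 1.07% and 0.662%.

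**Figure D4:**
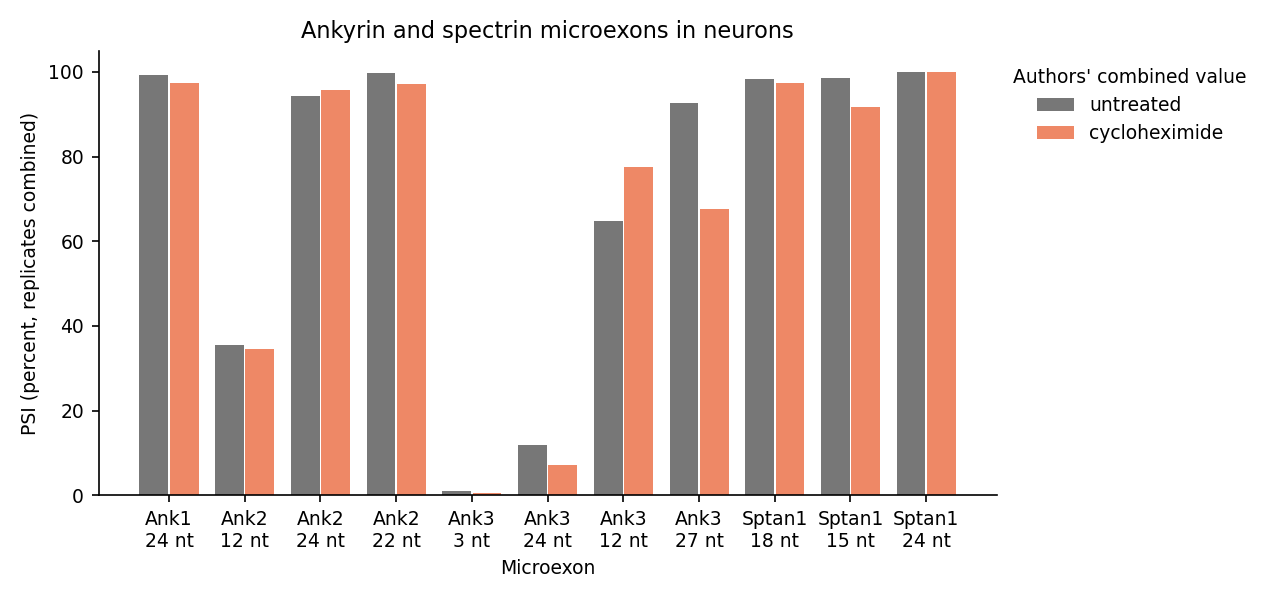
PSI in percent of the 11 ankyrin and spectrin microexons in untreated (grey) and cycloheximide-treated (orange) neurons, as the authors' values with 2 replicates combined and hence no error bars. The 27 nt exon of Ank3 is lower with cycloheximide (92.7% and 67.7%) and its 12 nt exon higher (64.7% and 77.6%).

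Set side by side, the same exons had these levels in siNT cells and in untreated neurons, from tables made in different formats, so that no difference between the cell types is drawn. The 27 nt exon of Ank3 was at 8.76% ± 1.40 in siNT cells and at 92.7% in neurons. The 15 nt exon of Sptan1 was at 60.8% ± 4.61 and 98.5%. Of the 12 nt exons, that of Ank2 was at 25.2% ± 6.35 and 35.6%, and that of Ank3 at 60.1% ± 2.67 and 64.7%.

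Exons were also called among the partners of these proteins. In a list of 26 genes of the spectrin skeleton, 13 had a fitted cassette exon. Of their 35 exons 1 was called (2.86%), against 1.18% of all. It was a 36 nt exon of Epb41l1, which encodes a neuronal protein of the 4.1 family that joins spectrin to actin, and it rose from 70.0% ± 1.85 to 89.6% ± 2.70. In a list of 32 ankyrin-bound membrane proteins and initial segment partners, 15 genes had a fitted exon. Of their 41 exons 2 were called (4.88%, against 1.18% of all), both lower in siQk. A 57 nt exon of Nrcam, an ankyrin-binding adhesion molecule, fell from 89.1% ± 1.87 to 18.1% ± 5.46. Its thinnest sample held 13 reads. The Ndel1 exon, of 35 nt in a gene that encodes a dynein regulator, fell from 14.8% ± 5.57 to 1.22% ± 0.319. The median difference was 1.20 points over the 35 exons and -0.37 points over the 41 exons, against 0.04 points over all.

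Exons of other genes with PSI values most like those of the Ank2 12 nt exon were found by the root mean square difference over the 6 N2A samples among 12922 fitted exons. The closest was a 27 nt exon of Ppfia3 at 5.29 points, followed by a 144 nt exon of Erbin at 6.64 points and a 27 nt exon of Ppfia1 at 7.70 points. A 190 nt exon of Rab12 at 10.7 points and a 45 nt exon of Fryl at 10.8 points came next. Both Ppfia genes encode liprin-alpha scaffold proteins, and Erbin encodes a scaffold of cell junctions. In the Ppfia3 exon PSI was 36.5%, 24.5% and 21.8% in siNT and 75.4%, 82.7% and 71.4% in siQk. This measure describes likeness in level over the same samples.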

How the data were processed

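Per the file headers, the authors deposited a percent spliced in for each event and N2A sample, laid out as vast-tools does, and a text quality cell with its reads. In all 1488 quality cells of member exons the junction read numbers listed added up to the reads behind the PSI, within 0.011 reads. Some exons list fewer than 3 such numbers. The deposited neural microexon list and the deposited neuron comparison (Whippet layout) give PSI as a fraction per group, with replicates combined, and a probability and differences as a score. Fractions are printed here in percent. The neuron table names the control before cycloheximide, so its first PSI column was read as untreated. The assembly is mm10, per the submitters' processing notes; no further software is named in the sources used here. GENCODE M21 is on the same assembly.

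Inclusion and exclusion reads, each raised by 0.5, were taken as a log2 ratio and fitted with limma 3.58.1 under R 4.3.3 (two-sided moderated test, robust, with the prior variance following each event's mean log sampling variance). These reads follow the deposited PSI rather than the junction read numbers, so the main fit carries the correction behind PSI. Adjustment was by Benjamini-Hochberg over all events of a class. CPM were computed here from the deposited reads. Coverage was fitted on log2(CPM + 0.5), again with limma, for genes averaging 20 reads or more, a scale that understates the change of low genes. Tables were handled with version 1.17.8 of data.table and with pandas 2.3.3 in Python 3.11.15. Figures were drawn with matplotlib 3.10.9.

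Members, lists and tests were chosen with earlier results of these data known. Named events are the called ones, exons of 3 to 27 nt that were fitted or are in the microexon tables, and up to 3 further fitted events per gene and class by size of difference. The microexons outside these tables and the other fitted exons were named after their values were seen. Reads are not separate molecules, as PCR copies were not marked.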

Additional observations from a re-analysis of the deposited data

How the results depend on the processing

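The same 2 cassette exons were called with at least 20 reads in each sample, with adjusted p alone, with the replicate block and without any 1 sample. The count was 3 with sampling variance weights, which added the 27 nt exon of Ank3, and 3 with no filter on mean PSI, which added its 63 nt exon. It stayed at 2 with limma on PSI, where the 99 nt exon of Ank2 took the place of the 60 nt exon of Sptan1. It was 4 on uncorrected junction reads, an alternative chosen after seeing the data, which added the 99 nt exon of Ank2 and the 63 nt exon of Ank3. Called alternative 3′ splice sites numbered 0 to 2 when each sample was left out in turn, the 2 being the Ank2 pair without siNT sample 1. Without 1 sample, the difference ran from 53.0 to 59.3 points for the Ank2 12 nt exon, from 23.0 to 29.9 for the Sptan1 60 nt exon and from -2.81 to 11.2 for the Ank3 12 nt exon; the cause was not tested. At 20 points, 1 neuron microexon counted as changed, the 27 nt exon of Ank3, and at 5 points 3 did. Introns and alternative 5′ splice sites had 0 calls in these genes under every alternative run. Of the 12930 cassette exons 152 were called without and 161 with the replicate block. Whether replicate numbers pair the samples was not settled. Deviations of same-numbered samples correlated at 0.0193 to 0.139 over exons, and those of differently numbered samples at -0.147 to 0.0451. Of the 6 samples, 5 correlated best with their own number.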
